A study of Mus musculus with 9 samples.

Results

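The genes described here are 10 components of the circadian clock and of the PAR bZIP transcription factors it drives: Dbp, Tef, Hlf, Nfil3, Per1, Per2, Nr1d1, Nr1d2, Arntl and Cry1. They were taken as every non-control probe that carries one of these names on the mouse array, which gave 22 of 56605 probes and 10 of 37074 gene names. The genes were chosen by their levels and detection flags across these arrays, so their own signals and differences are given as a description, without a test.

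Liver RNA of male mice was hybridised on 9 one-colour arrays, 3 for each of 3 groups. The labels give 12 months both as the age and as the time since treatment, and the study's text gives it as the time since injection in the groups on a regular diet, so the age of the mice is not settled here. AAV-V mice received an empty hepatocyte-directed adeno-associated virus (AAV) and ate a regular diet. AAV-GP73 mice received the virus carrying GP73, a Golgi membrane protein, and ate the same diet. AAV-V HFD mice received the empty virus and ate a high-fat diet, for a time on which the sources used here differ. The mice were C57BL/6N, and all 3 groups carry a virus. Whether an array holds 1 mouse or a pool, and the hour of the day at which these livers were collected, are not given in the sources used here. In bulk liver, fewer cells of a type and less RNA per cell cannot be told apart.

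The clock of a liver cell is a feedback loop. ARNTL (BMAL1) and CLOCK bind E-box sequences and switch on the Per and Cry genes, whose products block them, and the nuclear receptors NR1D1 and NR1D2 (REV-ERBs) repress Arntl through ROR elements. The loop drives the PAR bZIP activators DBP, TEF and HLF, which bind D-box sequences, and Nfil3 (E4BP4), a repressor of the same D-boxes. In liver these factors are known for the daily rhythm of detoxification and of lipid and glucose metabolism.

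Promoter sequences from RefSeq (assembly GRCm38.p6) were held for 9 of the 10 genes, with 12 start sites in all. The 250 bases before each start were searched on both strands for the E-box CACGTG, the D-box as TTATGTAA or TTATGCAA, the ROR element as AGGTCA preceded by AANT or TANT, and the cyclic AMP response element (CRE) TGACGTCA. An E-box stood in 4 of the 12 windows, against 6.02% of all 32851 promoters of that length: both Tef starts, the first Per1 start and Cry1. A D-box stood in 1 window (1.5% of all promoters), at the first Per1 start, a ROR element in 1 (0.304%), at Nfil3, and a CRE in 1 (1.55%), at Hlf. The promoters of Dbp and Nfil3 are shown because these were the members whose signals stood farthest apart between groups, and that of Per1 because it holds both an E-box and the D-box on which DBP and NFIL3 act. They lie at chr7:45704997-45705246 (plus strand), chr13:52981040-52981289 (minus strand) and chr11:69098699-69098948 (plus strand). Each is written 5′ to 3′ on the strand of the gene, ending at the base before the start, with matches in capitals.
Dbp: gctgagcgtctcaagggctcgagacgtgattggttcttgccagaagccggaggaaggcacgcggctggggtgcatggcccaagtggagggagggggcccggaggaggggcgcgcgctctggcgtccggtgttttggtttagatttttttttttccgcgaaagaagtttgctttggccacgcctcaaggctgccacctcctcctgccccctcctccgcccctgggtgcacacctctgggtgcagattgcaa
Nfil3: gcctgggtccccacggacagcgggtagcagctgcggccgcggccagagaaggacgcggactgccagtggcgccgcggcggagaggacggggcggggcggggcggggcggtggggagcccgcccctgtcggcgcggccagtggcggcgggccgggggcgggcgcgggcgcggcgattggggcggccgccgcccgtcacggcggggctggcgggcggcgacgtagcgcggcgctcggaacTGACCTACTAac
Per1: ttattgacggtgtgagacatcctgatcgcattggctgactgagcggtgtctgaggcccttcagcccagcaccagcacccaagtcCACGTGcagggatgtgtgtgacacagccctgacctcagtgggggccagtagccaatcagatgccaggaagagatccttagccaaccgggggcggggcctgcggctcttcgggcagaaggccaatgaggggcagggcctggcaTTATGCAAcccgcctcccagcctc
The capitals in Nfil3 are the ROR element, read on the opposite strand, at bases -12 to -3. In Per1 they are the E-box at -166 to -161 and the D-box at -24 to -17. The Dbp window held none of these letters, which says nothing of its other regulatory regions. A match is a description of the sequence and not a binding site.

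The arrays differed in brightness. A probe was taken as detected where the scanner software flagged it well above background, which held for 6.67% to 14.9% of probes per array. Signals are given as scaled log2 signals, after setting equal, on each array, the upper quartile of the 2667 probes that passed this flag 9 times out of 9. The lowest detected signal was 3.77 to 3.94 on the AAV-V arrays, 1.85 to 2.49 on the AAV-GP73 arrays and 2.04 to 2.81 on the AAV-V HFD arrays. A gene near background could therefore be detected in the latter 2 groups and missed in AAV-V. Slide 1 held AAV-V and AAV-GP73, in separate columns, and slide 2 held AAV-V HFD and was scanned apart. Slide and diet therefore cannot be told apart, and neither can column and GP73 on slide 1. Between AAV-GP73 and AAV-V HFD, slide and group cannot be told apart either. All 8 hepatocyte markers were detected on every AAV-V and AAV-GP73 array, and 7 of 8 on every AAV-V HFD array. The 4 erythroid markers summed to 10.71 to 13.04 (log2) in AAV-GP73, against 7.71 to 8.90 in AAV-V and 8.35 to 9.11 in AAV-V HFD. Of these 4, none was undetected throughout AAV-GP73, and 2 were undetected throughout each of the other groups. Their part in the results on AAV-GP73 was not tested. Golm1, which encodes GP73, was detected on no array, with scaled signals of -0.17 to 0.42 in AAV-GP73. Whether its probe lies in the sequence carried by the vector is not given in the sources used here, so it does not check the labels.

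Few of the clock genes were measurable. Of the 22 probes, 10 were detected on at least 1 array and 12 on none, and Hlf, Arntl and Cry1 were detected nowhere. Over the whole array, 80% of probes were detected on no array. Only 6 probes of 4 genes (Dbp, Tef, Nfil3 and Per1) were detected on all 3 arrays of at least 1 group and so entered the fit. Dbp and Nfil3 stood opposite to each other: Dbp was detected in AAV-V and AAV-V HFD and not in AAV-GP73, and Nfil3 was detected in AAV-GP73 alone. The map of detection shows both patterns for all 22 probes.

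**Figure D1:**
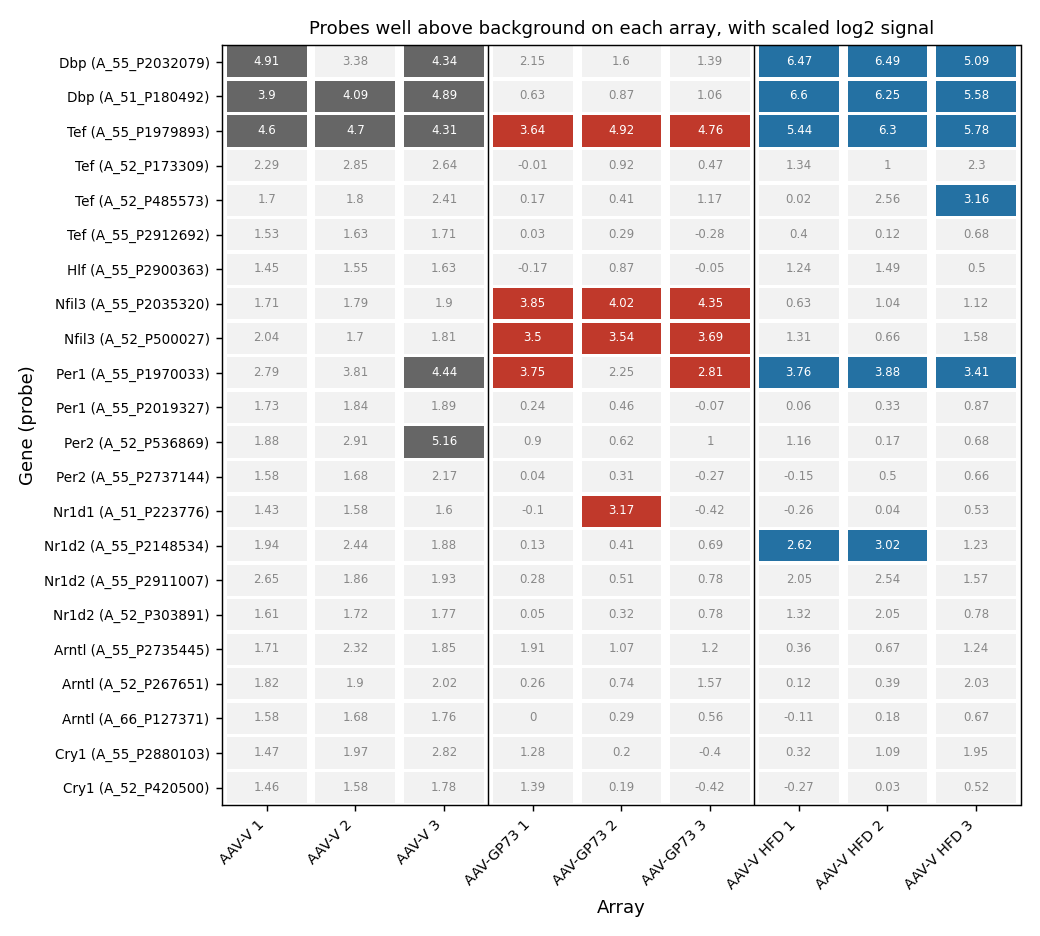
Detection of the 22 probes (rows, by gene) on the 9 arrays (columns). Coloured cells were well above background, grey cells were not, and the number in each cell is the scaled log2 signal. Both Dbp probes are grey on all 3 AAV-GP73 arrays, and both Nfil3 probes are coloured on those 3 arrays only.

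Dbp encodes the PAR bZIP activator known for a wide daily swing in liver RNA. Its probe A_51_P180492 (mm9, chr7:52965265-52965324) had scaled signals of 3.90, 4.09 and 4.89 in AAV-V, 0.63, 0.87 and 1.06 in AAV-GP73 and 6.60, 6.25 and 5.58 in AAV-V HFD. All 3 groups stood apart, and it was detected on the 6 arrays of AAV-V and AAV-V HFD only. As processed signals, before any scaling, these were 7.39, 7.92 and 16.2 in AAV-V, 2.06, 2.48 and 3.54 in AAV-GP73, and 164, 114 and 48.6 in AAV-V HFD. By this probe, Dbp was lower in AAV-GP73 than in AAV-V even though the AAV-GP73 arrays were the brighter ones, with a median processed signal of 104 to 129 over the probes detected everywhere, against 33.2 to 38.7 in AAV-V.

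The second Dbp probe, A_55_P2032079 (mm9, chr7:52965461-52965520), had scaled signals of 4.91, 3.38 and 4.34 in AAV-V, with the second array not detected. It had 2.15, 1.60 and 1.39 in AAV-GP73, all undetected, and 6.47, 6.49 and 5.09 in AAV-V HFD, all detected. In scaled signals the order of the groups was that of the first probe, and again no 2 groups overlapped. The processed signals were 14.9, 4.86 and 11 in AAV-V, 5.89, 4.12 and 4.46 in AAV-GP73, and 149, 135 and 34.7 in AAV-V HFD. Before scaling, the first AAV-GP73 array thus lay above the second AAV-V array, so these 2 groups overlapped.

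Because Dbp was not detected in AAV-GP73, its difference there is given as a bound. It sets the mean of the brighter group, without its error, against the lowest detected signal of each AAV-GP73 array. The level was at least 4.36-fold lower than in AAV-V by A_51_P180492. The same calculation gave 4.12-fold by A_55_P2032079, no strict bound, since that probe was detected on only 2 of 3 AAV-V arrays. The measured difference of A_55_P2032079 moved from -2.5 ± 0.46 (log2, SE) to -1.5 with the 75th percentile of all probes and to -0.82, under 2-fold, with spike-in spots. Against AAV-V HFD, Dbp was at least 15.7-fold and 14.4-fold lower by the 2 probes. The bound of A_51_P180492 against AAV-V depended on the scaling: it was 2.19-fold with the 75th percentile of all probes and 1.37-fold with spike-in spots, while that against AAV-V HFD stayed between 12.5-fold and 15.7-fold under those scalings, quantile normalization and the scaling used here. AAV-V HFD exceeded AAV-V by 1.85 ± 0.35 (log2, SE; 3.61-fold) and 1.81 ± 0.46 (3.50-fold) by the 2 probes. These shrank to 0.30 and 0.21 with normexp background correction. The differences of AAV-GP73 from AAV-V by the same 2 probes shrank from -3.44 and -2.5 to -1.08 and -1.04 with normexp. The median of all tested probes was then -0.58. The pattern of A_51_P180492, detected on all AAV-V and AAV-V HFD arrays and on no AAV-GP73 array, was shared by 9 of the 56605 probes (0.0159%, or 0.137% of the probes tested). Since Dbp was chosen with its flags known, this share is a description.

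Tef, the second PAR bZIP activator, followed Dbp in diet but not in AAV-GP73. Its probe A_55_P1979893 (mm9, chr15:81657221-81657280), the sole member probe detected on all 9 arrays, had scaled signals of 4.60, 4.70 and 4.31 in AAV-V. The AAV-GP73 arrays gave 3.64, 4.92 and 4.76, around the AAV-V values. The AAV-V HFD arrays gave 5.44, 6.30 and 5.78, above every array of the other groups. The difference from AAV-V was -0.09 ± 0.37 (log2, SE) with GP73 and 1.31 ± 0.37 with the diet, and AAV-GP73 was below AAV-V HFD by 1.4 ± 0.37. Without the first AAV-GP73 array, Tef in AAV-GP73 was 0.31 above AAV-V, and with the 75th percentile of all probes or spike-in spots it was 0.90 or 1.58 above. The diet difference came to 1.07 without the second AAV-V HFD array and to -0.02 with normexp. The other 3 Tef probes, which match other parts of the transcripts, were detected on 1 array between them (A_52_P485573, at 3.16 on the third AAV-V HFD array).

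Hlf, the third activator, had 1 probe, with scaled signals of -0.17 to 1.63 and no detection. Its level was below the range of these arrays in every group.

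Nfil3, the repressor that competes with DBP for D-boxes, had the reverse pattern of detection. By A_55_P2035320 (mm9, chr13:53062578-53062637) its scaled signals were 3.85, 4.02 and 4.35 in AAV-GP73, all detected. They were 1.71, 1.79 and 1.90 in AAV-V and 0.63, 1.04 and 1.12 in AAV-V HFD, none detected. The processed signals were 19.3, 22.1 and 34.6 in AAV-GP73, 1.62, 1.60 and 2.03 in AAV-V, and 2.61, 3.1 and 2.22 in AAV-V HFD.

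Probe A_52_P500027 (mm9, chr13:53062585-53062644), which shares 53 of its 60 bases with the first and is no independent measure, gave 3.50, 3.54 and 3.69 in AAV-GP73. It gave 2.04, 1.70 and 1.81 in AAV-V and 1.31, 0.66 and 1.58 in AAV-V HFD. In both probes all 3 AAV-GP73 arrays lay above all 6 others. AAV-V and AAV-V HFD were below background and so have no order between them.

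Nfil3 was at least 3.21-fold higher in AAV-GP73 than in AAV-V HFD by A_55_P2035320 and at least 2.27-fold higher by A_52_P500027. Against AAV-V the first probe was at least 1.16-fold higher. The second gave no bound above 1, since its AAV-GP73 signals lay under the lowest detected signals of the AAV-V arrays. With the 75th percentile of all probes these became 2.31-fold and 1.64-fold, and with spike-in spots 3.71-fold and 2.62-fold. With quantile normalization the first probe gave 1.22-fold and the second again no bound above 1. The measured differences from AAV-V, 2.28 ± 0.27 (log2, SE) and 1.73 ± 0.29, turned to -0.41 and -0.56 with normexp. Detection on all AAV-GP73 arrays and on no other was shared by 165 probes (0.291% of all, or 2.5% of those tested), among them both Nfil3 probes. This share too is a description, since Nfil3 was chosen with its flags known.

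**Figure D2:**
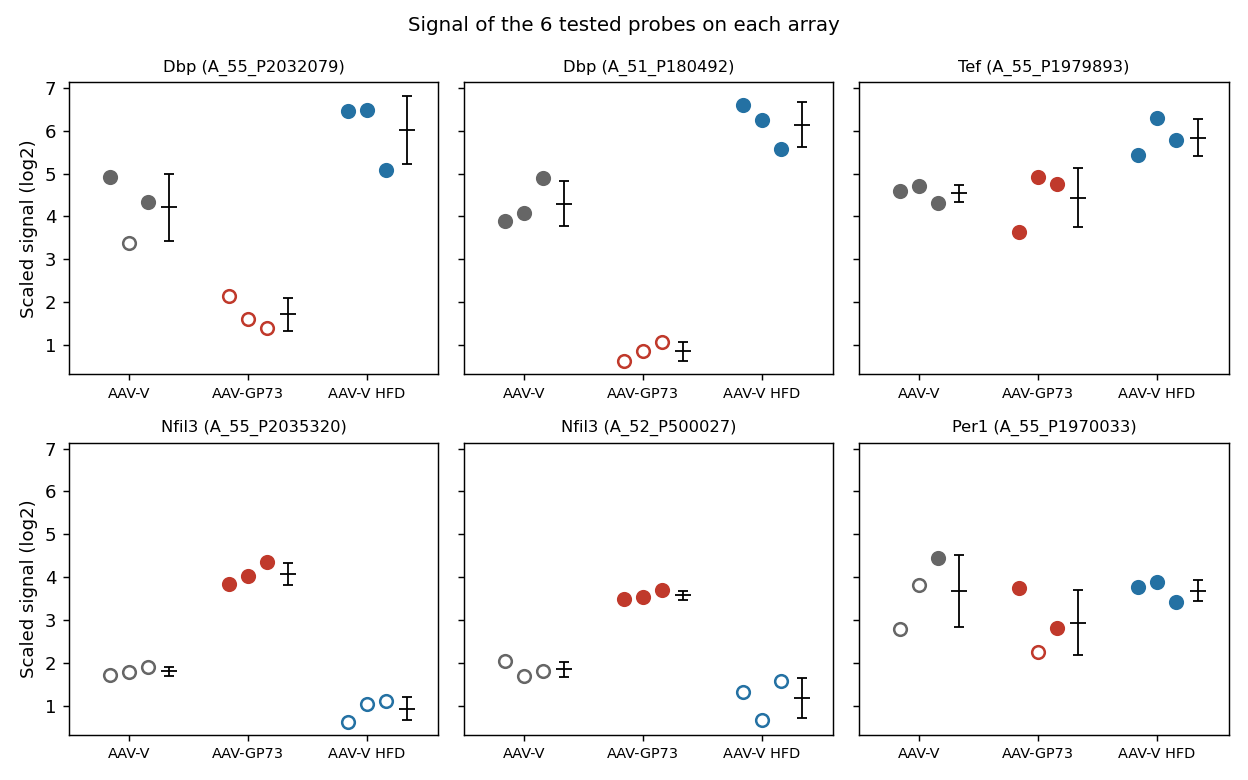
Scaled log2 signal (vertical axis) of the 6 tested probes in the 3 groups (horizontal axis). Each circle is 1 array, filled where detected and open where not, and bars give mean ± SD of 3 arrays. Dbp is lowest and Nfil3 highest in AAV-GP73, Tef is highest in AAV-V HFD, and the Per1 values of the groups overlap.

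The period genes encode the proteins that close the loop by blocking ARNTL and CLOCK. Per1, by A_55_P1970033 (mm9, chr11:68923364-68923423), had scaled signals of 2.79, 3.81 and 4.44 in AAV-V, of which the last was detected. It had 3.75, 2.25 and 2.81 in AAV-GP73, with the middle array undetected, and 3.76, 3.88 and 3.41 in AAV-V HFD, all detected. The groups overlapped in each comparison. Without the first AAV-V array the AAV-GP73 difference came to -1.19. AAV-GP73 differed from AAV-V by -0.75 ± 0.45 (log2, SE), which turned to 0.25 with the 75th percentile of all probes and 0.93 with spike-in spots. AAV-V HFD differed from AAV-V by 0.00 ± 0.45, and leaving out single arrays moved this between -0.44 and 0.38. The other Per1 probe was detected nowhere.

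Per2 was detected on 1 array. Its probe A_52_P536869 (mm9, chr1:93336538-93336597) stood at 5.16 on the third AAV-V array, against 1.88 and 2.91 on the other AAV-V arrays, 0.62 to 1.00 in AAV-GP73 and 0.17 to 1.16 in AAV-V HFD. That array also held the highest Per1 signal of all 9. Its Dbp signal was the highest of AAV-V by A_51_P180492 (4.89) but not by A_55_P2032079 (4.34, against 4.91 on the first array). The second Per2 probe, at -0.27 to 2.17, was not detected. Cry1, which encodes the partner of the period proteins, had 2 probes at -0.42 to 2.82 and no detection.

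The REV-ERB genes, which encode the repressors of Arntl, were seen on few arrays. Nr1d1 (A_51_P223776) stood at 3.17 on the second AAV-GP73 array and was undetected on the other 8, at -0.42 to 1.60. Nr1d2 (A_55_P2148534; mm9, chr14:19036568-19036627) was detected on the first and second AAV-V HFD arrays, at 2.62 and 3.02, and not on the third, at 1.23. In AAV-GP73 it stood at 0.13, 0.41 and 0.69 and in AAV-V at 1.94, 2.44 and 1.88, below detection in both. The calculation used for the bounds gave a level 1.09-fold lower in AAV-GP73 than in AAV-V HFD. This is no strict bound, since the third AAV-V HFD array was undetected. The other 2 Nr1d2 probes were detected nowhere. Arntl, the positive arm of the loop, had 3 probes at -0.11 to 2.32 and no detection, so the arrays say nothing of its level between groups.

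By its brightest probe, a gene was called where the limma fit over all 6591 tested probes gave 2-fold or more and an adjusted p under 0.05. For the members these marks are a description and no test, since the same contrasts were used to choose them. Moreover, Nfil3 entered the fit only through AAV-GP73, and the brightest probes of Dbp and Per1 only through AAV-V HFD. Of the 4 member genes in the fit, Nfil3 (higher) and Dbp (lower) were past both thresholds in AAV-GP73 against AAV-V, where 52.6% of all 5761 tested genes were called, 33.2% higher and 19.4% lower. Dbp and Tef (higher) were past them in AAV-V HFD against AAV-V, where 43% of genes were called and 24.8% were higher. Nfil3 (higher) and Dbp (lower) were past them in AAV-GP73 against AAV-V HFD, where 2.57% were called, 1.98% higher and 0.59% lower. Genes whose arrays did not overlap made up 67.6%, 56.9% and 24% of those tested in these comparisons. Nothing is read from the members' count. The first 2 comparisons share the AAV-V arrays.

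The share of genes called against AAV-V was large and moved with the scaling. Against AAV-V, the median log2 difference of the tested genes was 0.60 with GP73 and 0.37 with the diet, and it was 0.09 between these groups. Relative to these medians, in the scaling used here alone, Dbp stood at -3.09 and -4.03 by its 2 probes in AAV-GP73 against AAV-V, and Nfil3 at 1.68 and 1.13. Of the 6591 probes, 51.8% were called in AAV-GP73 against AAV-V and 33.9% were higher, which is 65.4% of those called, against 91.3% with the 75th percentile of all probes, 98.2% with spike-in spots and 17% with normexp. With the diet, 42% were called and 25% were higher, or 59.6% of those called, against 95.2%, 98.3% and 8.28%. Set against each other, AAV-GP73 and AAV-V HFD (median processed signal 76.4 to 124 over the probes detected everywhere) had 2.67% of probes called, 2.08% higher, and a median over probes of 0.01 to 0.44 under the 6 scalings. In it, Dbp by A_51_P180492 differed by -5.29 ± 0.35 (log2, SE), and by -4.91 to -5.25 under 4 of the 5 other scalings, with -1.38 under normexp. Nfil3 by A_55_P2035320 differed by 3.14 ± 0.27, by 2.80 to 3.48 under those 4, and by 0.51 under normexp.

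**Figure D3:**
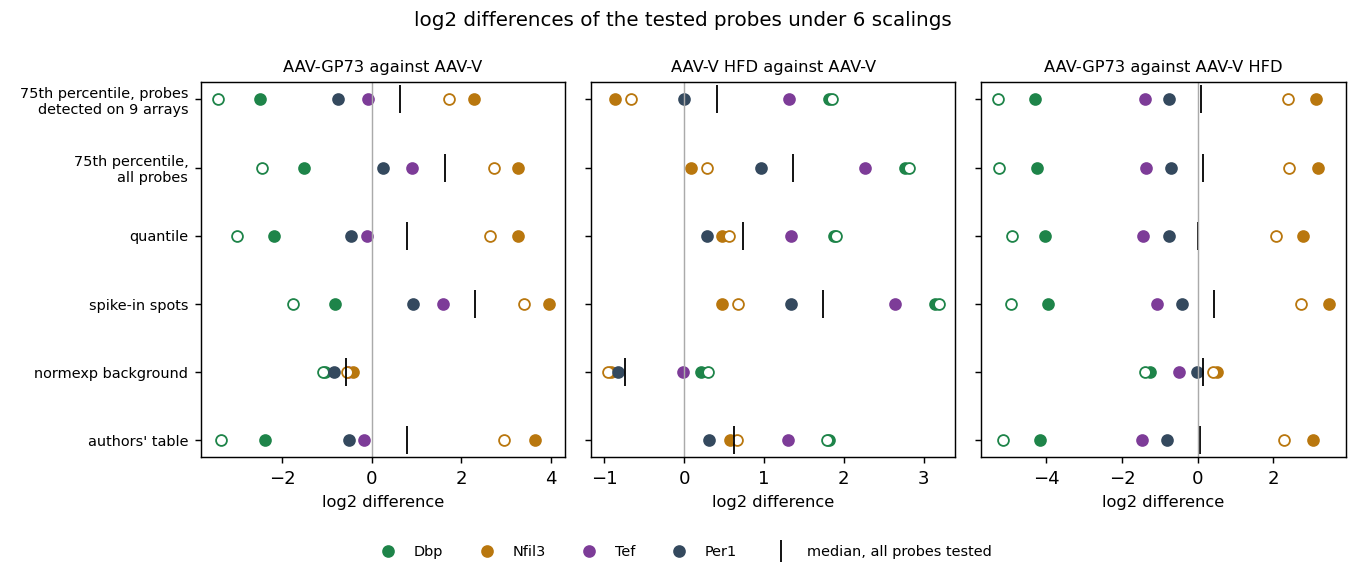
The log2 difference (horizontal axis) of each tested probe in the 3 comparisons (panels) under 6 ways of scaling the arrays (vertical axis). Colours mark genes, filled circles the brightest probe of a gene, open circles its second probe, and black ticks the median of all tested probes. In the right panel, AAV-GP73 against AAV-V HFD, Dbp lies below 0 and Nfil3 above 0 under all 6, closest to 0 with normexp.

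The other genes of the clock loop and its regulators were mostly out of range too. Of 22 genes, 13 were detected nowhere and 3 were tested. In AAV-GP73 against AAV-V, 2 of the 3 rose and none fell (2 and 0 at an unadjusted p under 0.05), beside 33.2% of all genes called higher and 19.4% lower, with a median log2 difference of 1.23 beside 0.60 for all genes. Ncor1, the corepressor through which REV-ERBs act, rose from 5.36 ± 0.62 (SD, n = 3) in AAV-V to 6.59 ± 0.11 in AAV-GP73 (log2 difference 1.23, limma adjusted p = 0.00963). It was no longer called without the second AAV-V array (0.88), with normexp (0.17) or with the values of the authors' table (1.03).

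Rora, the activator that competes with REV-ERBs at ROR elements, was detected on all AAV-GP73 and AAV-V HFD arrays and on no AAV-V array. It rose at least 1.96-fold with GP73 (adjusted p = 0.00536) and at least 1.47-fold with the diet (adjusted p = 0.0243), where it was the 1 gene of the 3 called, beside 24.8% of all genes called higher. The AAV-V arrays spread from 1.96 to 4.22, all undetected, so Rora entered the fit only through the groups where it was high. Its p-values set those groups against background and are a description. The same holds for every p-value given below beside a fold stated as "at least", and for all those of Alas1, Elovl3 and Insig2. These genes too entered the fit only through groups where they were high. With normexp the differences of Rora became -0.28 and -0.55, and the diet call was lost without the third AAV-V array (0.83), or the first (1.4) or second (1.36) AAV-V HFD array. Between AAV-GP73 and AAV-V HFD none of the 3 was called by limma, and none passed an unadjusted p under 0.05. Csnk1d, a kinase of the period proteins, was the third gene tested (0.45 ± 0.94 in AAV-GP73 against AAV-V), with 6.76 on the first AAV-V array and 2.25 and 1.97 on the others.

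Among 18 output genes of the clock and of PAR bZIP factors in liver, 4 were detected nowhere and 10 were tested. In AAV-GP73 against AAV-V 4 rose and 2 fell, beside 33.2% higher and 19.4% lower among all genes. In AAV-V HFD against AAV-V 2 rose and 1 fell, beside 24.8% and 18.2%. Between AAV-GP73 and AAV-V HFD 2 were higher and 1 lower, beside 1.98% and 0.59%. The median differences were 0.84, 0.52 and -0.15, beside 0.60, 0.37 and 0.09 for all genes. The output genes named below, except Cyp2a5 and Nr1i3, were chosen after their values were seen.

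Upp2, a uridine phosphorylase whose RNA cycles in liver, fell farthest. Its scaled signals were 5.67, 5.59 and 6.35 in AAV-V, 0.37, 1.48 and 1.41 in AAV-GP73, where it was not detected, and 3.26, 3.06 and 5.09 in AAV-V HFD. In AAV-GP73 it lay at least 13.0-fold below AAV-V (adjusted p = 6.16e-05) and fell by 2.06 (log2) in AAV-V HFD (adjusted p = 0.00614), a fall that came to -0.73 and was not called with spike-in spots. AAV-GP73 was at least 3.11-fold below AAV-V HFD (adjusted p = 0.0172), a call lost with quantile normalization (-2.44), normexp (-0.15), the authors' table (-2.68), no filter on dim probes, or any AAV-GP73 array left out.

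Alas1, the first enzyme of heme synthesis and a target of PAR bZIP factors, rose in both groups, by 2.77 with GP73 (adjusted p = 0.00029) and 3.32 with the diet (adjusted p = 0.000331). It was detected on 2 of 3 AAV-V arrays, at 4.09 and 5.69, and on all 6 others, at 7.01 to 7.98. The p-values of Alas1 are therefore a description. With normexp the AAV-GP73 difference was 0.93 and was not called. Gys2, the glycogen synthase of liver and a direct target of CLOCK, was not detected in AAV-V. It rose at least 3.12-fold with GP73 (adjusted p = 0.000741) and at least 3.20-fold with the diet (adjusted p = 0.0012), with -0.01 and -0.06 under normexp.

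Elovl3 and Insig2 separated AAV-GP73 from AAV-V HFD. Both were detected on every array of AAV-GP73 alone, so their p-values are a description. Elovl3, a fatty acid elongase of strong daily rhythm, had scaled signals of 6.04, 6.33 and 5.78 in AAV-GP73, 3.67, 4.54 and 4.02 in AAV-V (1 array detected) and 3.87, 3.15 and 1.30 in AAV-V HFD (2 detected). The rise in AAV-GP73 was 1.97 ± 0.53 against AAV-V (adjusted p = 0.00744; 0.07 and not called with normexp) and 3.28 ± 0.53 against AAV-V HFD (adjusted p = 0.00838), the latter not called with the authors' table (3.34). Insig2, a brake on cholesterol synthesis under REV-ERB control, had 4.18, 4.11 and 4.10 in AAV-GP73, 1.41, 1.54 and 1.91 in AAV-V, none detected, and 2.40, 3.29 and 1.96 in AAV-V HFD, with the last undetected. It was at least 1.21-fold higher than in AAV-V (adjusted p = 0.000158; -0.41 with normexp) and 1.58 ± 0.34 higher than in AAV-V HFD (adjusted p = 0.0303). The latter was not called with quantile normalization (1.42), normexp (0.45), the authors' table (1.54), no filter on dim probes, the replicate number as a block, or without any one of the AAV-GP73 arrays or the first or the third AAV-V HFD array.

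Cyp2a5, a coumarin hydroxylase driven by DBP, was lower in AAV-GP73 than in AAV-V by 1.04 (7.46 ± 0.23 against 6.42 ± 0.76; adjusted p = 0.0353). This call did not hold: it was lost with the 75th percentile of all probes (-0.05), turned with spike-in spots (0.63), was lost with normexp (-0.67) and the methods' t-test, and was lost without the second or the third AAV-V array or the first or second AAV-GP73 array. Cyp2a4, Por, Nr1i3 and Tspan4 were tested and not called in any comparison. Nr1i3, the nuclear receptor CAR whose gene PAR bZIP factors drive, differed by -0.93 ± 0.40 with GP73 and -0.89 ± 0.40 with the diet (adjusted p = 0.0625 and 0.0776).

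**Figure D4:**
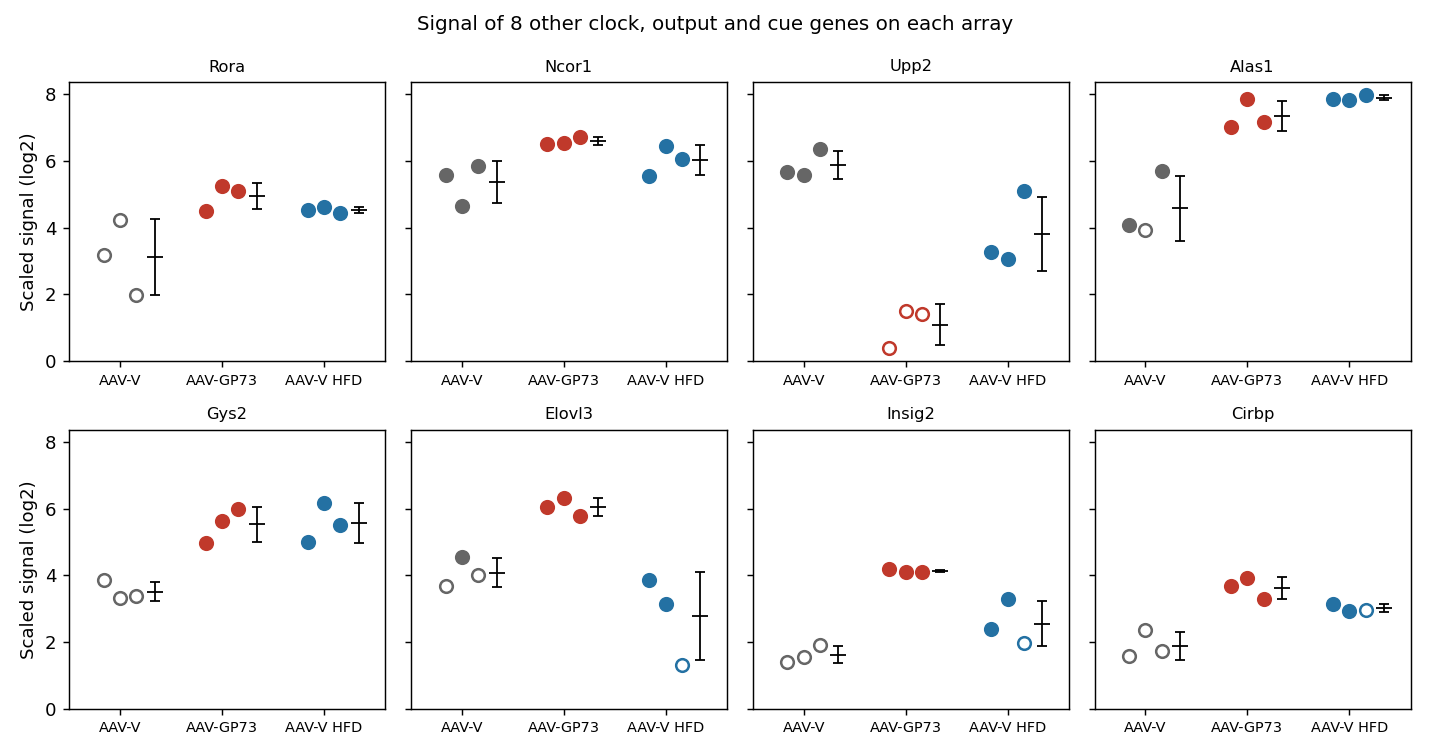
Scaled log2 signal (vertical axis) of 8 genes outside the 10 members in the 3 groups (horizontal axis), 1 circle per array, filled where detected, with mean ± SD of 3 arrays. Upp2 is lowest in AAV-GP73, Alas1 and Gys2 lie above AAV-V in both other groups, and Elovl3 and Insig2 are highest in AAV-GP73.

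Rhythmic liver genes that follow body temperature and glucocorticoids rather than the local loop formed the last list of 12, of which 8 were tested. In AAV-GP73 against AAV-V 2 were called higher and none lower (5 and 0 at an unadjusted p under 0.05), beside 33.2% and 19.4% of all genes, with a median log2 difference of 0.96 beside 0.60. These were Cirbp, a cold-induced RNA-binding protein, and Hsph1, a heat shock protein. Neither was detected on an AAV-V array and neither gave a bound above 1. Their AAV-GP73 means of 3.62 and 3.51 lay under the lowest detected signals of the AAV-V arrays (3.77 to 3.94), so a rise was not measurable. In AAV-V HFD against AAV-V 3 were called higher and none lower, beside 24.8% and 18.2% of all genes, with a median of 0.36 beside 0.37. Cirbp was again without a bound above 1. Its relative Rbm3 was at least 1.22-fold higher (adjusted p = 0.00989) and Tsc22d3, the glucocorticoid-induced gene GILZ, at least 1.64-fold (adjusted p = 0.0077). All 5 calls turned in sign with normexp, Cirbp in AAV-V HFD was lost without the first AAV-V array (0.97), and Rbm3 without the third AAV-V (0.94) or the third AAV-V HFD array (0.83). Between AAV-GP73 and AAV-V HFD none was called by limma, and 2 were higher at an unadjusted p under 0.05. Of the genes detected on all arrays of AAV-V and AAV-GP73, Hspa8 differed by 0.99 ± 0.37 (adjusted p = 0.0344), just under 2-fold, Hsp90aa1 by 0.71 ± 0.54 and Hsp90ab1 by -0.11 ± 0.25. These named genes, the heat shock genes of the last sentence aside, were chosen after their values were seen.

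Over the 9 arrays and 5760 other tested genes, the signals closest in shape to Dbp (A_55_P2032079) were those of Tuba1b, Fam47e and Sec61a1, with Pearson correlations of 0.901, 0.846 and 0.814. Those closest to Nfil3 (A_55_P2035320) were Zfp595, the transcript ENSMUST00000185927 and Thumpd3, at 0.977, 0.973 and 0.963. The arrays fall into 3 groups and share their differences in brightness, so these are descriptions of shape only.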

How the data were processed

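Total RNA was labelled with Cy3 and hybridised to Agilent mouse arrays, and the deposited intensity values are the processed signals of Feature Extraction (12.0.3.1 per the file headers, 10.7 per the labels), background-corrected by that software. The authors also deposited a table of log2 values, centred near 0.80 on each array and used as an alternative, for which the scaling method is not given in the sources used here. Spots of a probe were averaged without outlier spots, log2 signals were shifted to an equal 75th percentile over 2667 probes (well above background on 9 of 9 arrays), and the 6591 probes detected on all 3 arrays of a group were fitted with limma 3.58.1 (lmFit, eBayes; Benjamini-Hochberg) in R 4.3.3. The fit was run on simulated data drawn from probes detected on all 9 arrays, which says nothing of probes near background. A gene was called at 2-fold and an adjusted p under 0.05, by its brightest probe. Where a probe was undetected on every array of a group, its level was bounded by the higher of its own and the lowest detected signal on each array. This floor is no strict limit: Rora was undetected at 4.22 on the second AAV-V array, where the lowest detected signal was 3.87. A fold given as "at least" also takes the mean of the brighter group without its error. The members and lists were chosen with earlier results of these data known. The rule for naming covered every member, up to 5 genes per list detected on all arrays of AAV-V and AAV-GP73, called loop genes, the 3 genes closest in shape to Dbp, Nfil3 and Arntl (Arntl was not tested), and Golm1. Other list genes named, among them Upp2, Alas1, Gys2, Elovl3, Insig2, Cirbp and Hsph1, fell outside this rule and were chosen after their values were seen. Marker lists of other cells held 4 to 8 genes. The labels do not state separate animals, so the spread against which p-values set a difference is one between samples. In the limma fit that spread was pooled over all groups and moderated across probes. Array number limits precision. Replicates within a group correlated at 0.935 to 0.980. Same-numbered arrays deviated together with correlations of -0.11 to 0.17, over 0.1 in 2 of 9 pairs, so they were not treated as pairs. Marker sums (log2, AAV-V, AAV-GP73, AAV-V HFD) were 6.55 to 6.83, 6.51 to 7.22 and 6.71 to 7.68 for macrophages, 4.52 to 4.99, 4.75 to 5.30 and 3.28 to 4.61 for endothelium, 6.32 to 6.57, 7.19 to 7.48 and 6.22 to 6.94 for stellate cells, 4.40 to 4.70, 2.87 to 3.90 and 2.55 to 3.92 for cholangiocytes, and 6.07 to 6.91, 5.43 to 6.18 and 5.57 to 6.18 for lymphocytes.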

Additional observations from a re-analysis of the deposited data

Results flagged for a closer look

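The signals of Dbp lay below AAV-V in AAV-GP73 and above it in AAV-V HFD, and those of Nfil3 differed most between the same groups. These values are a description, since both genes were proposed from these contrasts. By A_51_P180492, Dbp differed from AAV-V by -3.44 (log2) with GP73 and 1.85 with the diet, and AAV-GP73 minus AAV-V HFD was -5.29. By A_55_P2032079 the values were -2.5, 1.81 and -4.3. For Nfil3 the difference between AAV-GP73 and AAV-V HFD was 3.14 by A_55_P2035320 and 2.39 by A_52_P500027, while AAV-V HFD minus AAV-V was -0.87 and -0.67 between 2 undetected groups. Dbp was undetected in AAV-GP73 and Nfil3 in AAV-V HFD, so the measured sizes are no bounds. Slide and diet cannot be told apart, nor slide column and GP73, nor slide and group between AAV-GP73 and AAV-V HFD.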

How the results depend on the processing

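Detection flags do not depend on the scaling between arrays, whereas differences from AAV-V, the dimmest arrays, moved with it. Of 393 values of the 6 member probes under the alternatives, 358 kept their direction and side of the threshold, and of 442 values of called genes of the other lists, 384 did. Many of these settings changed only the p-value, or left out an array of neither group compared, so the direction could not turn. These counts are therefore no measure of stability. The causes of the changes were not tested. Probes called between AAV-GP73 and AAV-V numbered 3416, with 5209 under spike-in scaling, 893 under normexp, 47085 without a filter on dim probes and 1250 among probes detected on all 9 arrays. Between AAV-V HFD and AAV-V they numbered 2767, with 4521, 966, 45130 and 1086, and 1696 with the methods' t-test after adjustment. Between AAV-GP73 and AAV-V HFD they numbered 176, with 48 under quantile normalization, 367, 49, 78 and 71 under the same settings as before, 27 with the authors' values, 389 with the methods' t-test unadjusted and 13 adjusted, and 38 to 191 when leaving out single arrays (38 without the third AAV-GP73 array, 55 without the second, 88 without the first and 93 without the first AAV-V HFD array). Member genes past the thresholds, 2 in each comparison, became 1, 0 and 1 under normexp, 6 and 4 in the first 2 without a filter, 0, 1 and 1 among probes detected on all 9 arrays, and 1 and 0 in the last 2 with the adjusted t-test, and 1 for the diet without the second AAV-V HFD array. Other clock genes called, 2 for AAV-GP73 against AAV-V, became 0 under normexp, 1 with the authors' values, 16 without a filter, 1 among probes detected on all 9 arrays, 1 and 0 with the t-test, and 1 to 3 when leaving out arrays (1 without the second AAV-V array, 3 without the first). With the diet the 1 became 2 with the 75th percentile of all probes or spike-in scaling, 13 without a filter, 0 among probes detected on all 9 arrays and with either t-test, and 0 to 2 when leaving out arrays (2 without the first AAV-V array, 0 without the third or without the first or second AAV-V HFD array). Between AAV-GP73 and AAV-V HFD the 0 became 1 without a filter.

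Under spike-in scaling, Dbp by A_55_P2032079 was no longer called in AAV-GP73 against AAV-V (-0.82), although the count of member genes was again 2. With the adjusted t-test, Dbp by A_55_P2032079 was no longer called for the diet or between AAV-GP73 and AAV-V HFD, nor Nfil3 in the latter. Rora, Ncor1 and Cyp2a5 lost every call, Upp2 those involving AAV-V HFD, and Elovl3 and Insig2 those between AAV-GP73 and AAV-V HFD. Per1 was called for AAV-GP73 against AAV-V without the first AAV-V array (-1.19). Signs turned as follows. In AAV-GP73 against AAV-V, Tef became 0.90 with the 75th percentile of all probes, 1.58 with spike-in scaling and 0.31 without the first AAV-GP73 array (range over arrays left out -0.33 to 0.31), Per1 0.25 and 0.93 under the first 2, and Nfil3 -0.41 and -0.56 under normexp. In AAV-V HFD against AAV-V, the undetected Nfil3 became 0.09 and 0.29 with the 75th percentile of all probes, 0.47 and 0.56 with quantile normalization, 0.47 and 0.67 with spike-in scaling and 0.57 and 0.66 with the authors' values, Tef -0.02 and Per1 -0.83 under normexp, and Per1 -0.44 to 0.38 when leaving out arrays. Under normexp, Rora became -0.28 and -0.55, Gys2 -0.01 and -0.06, Cirbp -0.54 and -0.75 (AAV-GP73 and AAV-V HFD against AAV-V), Insig2 -0.41, Hsph1 -0.55, Rbm3 -0.65 and Tsc22d3 -0.48, and Cyp2a5 became 0.63 with spike-in scaling. The bound of the second Nfil3 probe against AAV-V was below 0 in the scaling used and -0.2 (log2) with quantile normalization. It was 0.71 with the 75th percentile of all probes and 1.39 with spike-in scaling. These bounds and the values per gene of the other lists were chosen after seeing the data. With the replicate number as a block, 3413, 2779 and 124 probes were called, and of the genes named, the Insig2 call between AAV-GP73 and AAV-V HFD was lost.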
